A study of Gallus gallus with 3 samples.

Results

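The mitochondrial ribosomal protein genes were taken here as every gene whose symbol in the NCBI chicken RefSeq gene table begins with MRPL or MRPS followed by a digit. The table holds 73 such genes, 46 of the large and 27 of the small subunit. Of these, 55 had at least 1 transcript among the deposited values and are described below, 31 of the large and 24 of the small subunit, out of 10663 genes that could be named in all. The other 18 (15 large, 3 small) were paired with no transcript and were not analysed here. RNA was taken from breast muscle of male Arbor Acres broilers (chickens bred for meat), 42 days old and kept in air with 50 ± 3 ppm of ammonia. The 3 libraries, numbered here as in their titles, are replicates of this single condition. With no other exposure to set against it, the data describe the tissue and hold no contrast for ammonia. Whether each library is a different bird is not stated, and an SD therefore covers the spread between libraries, which may be technical.

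As background, mitochondria keep a ribosome of their own, the mitoribosome, which makes the few membrane proteins of the respiratory chain and the ATP synthase that mitochondrial DNA encodes. Its RNA comes from mitochondrial DNA, but all of its proteins are made from nuclear genes in the cytosol and imported. The small subunit reads the messenger RNA, and the large subunit joins amino acids and feeds the new chain into the inner membrane. In mammals some of these proteins descend from bacterial ribosomal proteins and others were added during mitochondrial evolution. The pectoral muscle of broilers consists mainly of fast glycolytic fibres with few mitochondria.

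Values are in FPKM, a read density corrected for transcript length and library size, so levels of different genes can be set side by side. The deposited tables name no unit, and FPKM is an inference from the values. Summed values were 569361, 586193 and 573648 FPKM in libraries 1 to 3, and read depth is unknown. A gene was kept when it reached 1 FPKM in at least 2 libraries, which 6595 named genes did, and all 55 mitoribosomal genes were among them. The tissue label was checked with muscle markers. Of 10, 6 were matched, holding 6.36%, 7.62% and 7.83% of the summed value, almost all of it in 3 fast troponin genes, among them TNNT3 at 11557, 17041 and 18325 FPKM. The other 3 were low or uneven. The fast myosin MYH1A was listed at 4.77, 216 and 35.4 FPKM and MB (myoglobin) at 1.82, 9.32 and 6.36 FPKM. PVALB, a calcium buffer of fast fibres, was listed at 2.37, 1.46 and 1.28 FPKM.

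Markers of other cell types differed between the libraries. Fibroblast markers (5 of 6 matched) summed to 385, 843 and 643 FPKM in libraries 1 to 3. Macrophage markers (5 of 6) summed to 365, 317 and 153 FPKM, adipocyte markers (5 of 5) to 185, 128 and 76.5 FPKM, and endothelial markers (5 of 6) to 85.7, 52.6 and 57.5 FPKM. Blood markers (4 of 5, with ALAS1 standing in for ALAS2 through a synonym) summed to 37.3, 71.9 and 119 FPKM, with the globin HBAD near 0 in every library. Most of that sum was HBBA, at 24.3, 54.1 and 98.7 FPKM, and most of the rest ALAS1, at 12.9, 17.9 and 17.5 FPKM. ALAS1 entered only through a synonym, so its part of the sum is uncertain as a sign of blood. HBA1 was near 0 in libraries 1 and 2 and at 3.10 FPKM in library 3. These sums follow a few abundant genes, and other members went other ways. Among the macrophage markers, CD74 made up most of the sum, at 325, 270 and 136 FPKM. Yet 4 of the 5 were highest in library 2 (26.3% of kept genes), and all 5 were lowest in library 3 (39.4%). The fibroblast marker PDGFRA was highest in library 1 (5.53, 3.36 and 3.65 FPKM), the adipocyte marker ADIPOQ highest in library 3 (38.4, 36.1 and 46.9 FPKM), and the endothelial marker CDH5 highest in library 3 (14.02, 11.3 and 15.4 FPKM). The part of these cells in the results below was not tested. In bulk tissue, fewer cells of a type and less RNA per cell cannot be told apart.

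The mitoribosomal genes were all kept, and most stood above the median kept gene in mean level. Together they held 0.423%, 0.473% and 0.452% of the summed value in libraries 1 to 3 (0.449 ± 0.025%, SD, n = 3). The median gene stood at 30.4, 41.5 and 37.1 FPKM, against 9.88, 8.51 and 8.36 FPKM over all kept genes. Mean levels over the 3 libraries ran from 8.70 FPKM for MRPL32 to 144 FPKM for MRPL33, a ratio of 16.6. Of the 55 genes, 4 had a mean above 100 FPKM, 40 lay between 20 and 100 FPKM and 11 lay below 20 FPKM. None was listed at 0. Ranked among kept genes by mean level, they ran from percentile 49.0 to 95.2, with a median of 82.3.

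**Figure D1:**
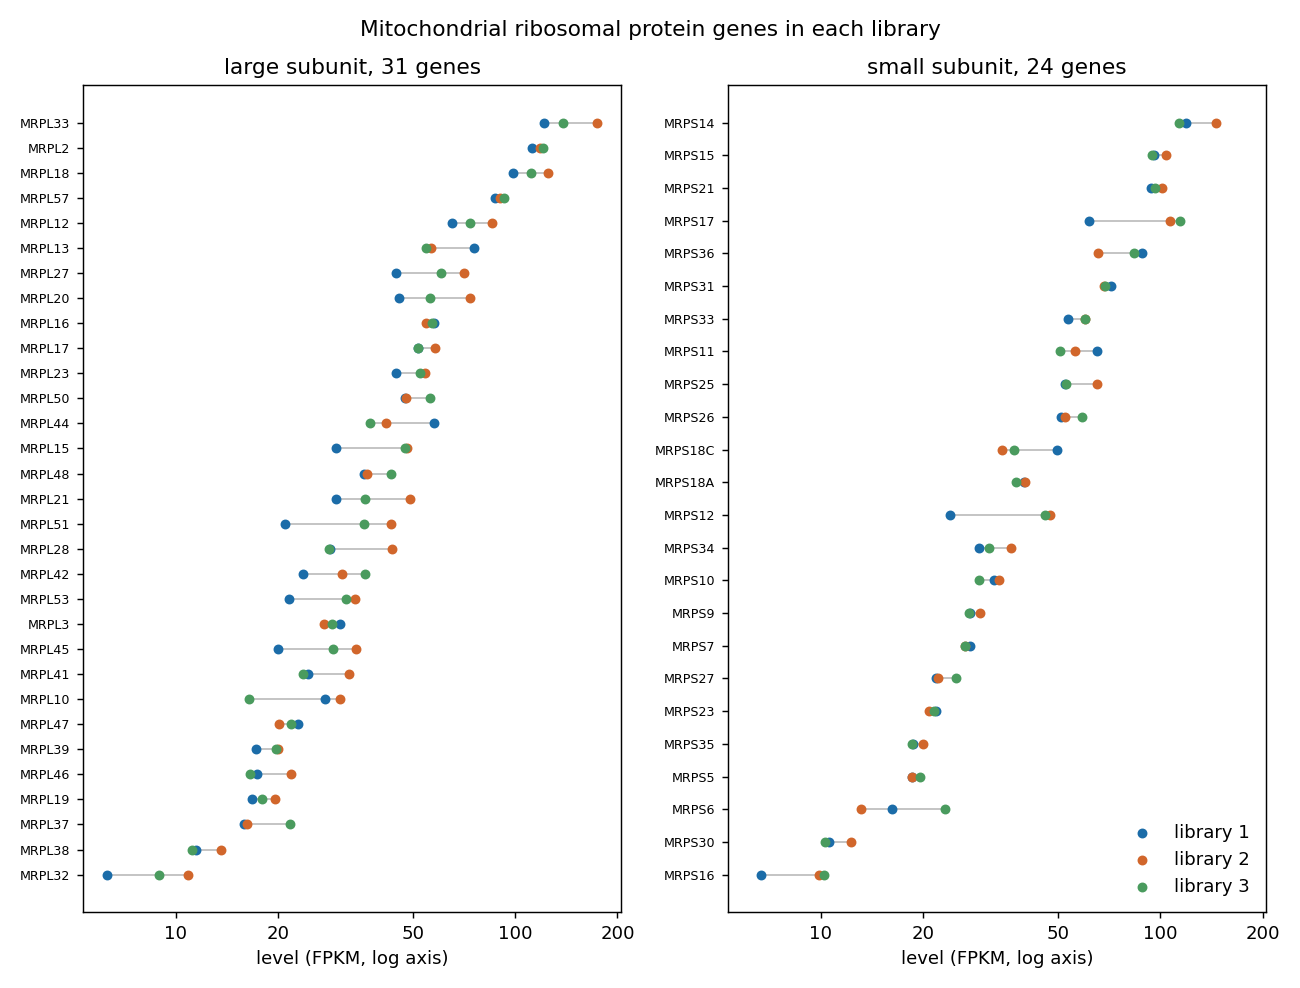
Level of each mitochondrial ribosomal protein gene in FPKM on a log axis, with the large subunit (31 genes) on the left, the small subunit (24 genes) on the right, and 1 point for each of the 3 libraries. Genes are ordered by mean level, from MRPL32 at 8.70 to MRPL33 at 144 FPKM and from MRPS16 at 8.94 to MRPS14 at 126 FPKM. Long bars, as at MRPS12 and MRPL51, mark genes whose libraries lie far apart.

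In the large subunit, the highest level belonged to MRPL33, the homolog of bacterial L33, at 121, 174 and 138 FPKM in libraries 1 to 3 (144 ± 26.8, SD, n = 3). MRPL2, whose bacterial homolog sits at the site where peptide bonds form, followed at 112, 118 and 120.4 FPKM. MRPL18, homolog of the bacterial protein that binds the smallest ribosomal RNA, stood at 98.2, 125 and 112 FPKM. The ranges of MRPL2 and MRPL18 overlapped, so their order is not set by these libraries, while MRPL33 was above MRPL2 in each library. MRPL57, a protein that bacteria lack, came next at 87.1, 89.9 and 92.8 FPKM as the sum of 2 transcripts. From its higher transcript alone its mean was 56.4 FPKM, below the means of MRPL12 and MRPL13 (74.6 and 62.3 FPKM).

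The stalk of the large subunit recruits translation factors. MRPL12, which forms the stalk, was listed at 65.0, 85.2 and 73.5 FPKM, and MRPL10, which anchors it to the ribosome, at 27.6, 30.4 and 16.4 FPKM. MRPL12 was thus the higher of the pair in every library. Around the tunnel through which the new chain leaves, MRPL23 stood at 44.7, 54.4 and 52.3 FPKM and MRPL45, which in mammals ties the ribosome to the inner membrane, at 19.997, 34.0 and 29.2 FPKM. Both were lowest in library 1 and highest in library 2. The core proteins MRPL3, MRPL13 and MRPL16 had means of 28.9, 62.3 and 56.3 FPKM.

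The lowest large subunit genes were MRPL32 at 6.30, 10.9 and 8.93 FPKM, MRPL38 at 11.5, 13.7 and 11.1 FPKM and MRPL37 at 15.9, 16.3 and 21.8 FPKM. MRPL32 and MRPL38 did not overlap. MRPL32 is known in mouse and yeast as a protein that a mitochondrial protease must trim before the ribosome assembles. MRPL37 and MRPL38 have no bacterial counterpart.

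In the small subunit MRPS14 stood highest, at 119, 145 and 114 FPKM (126 ± 17.0, SD, n = 3). MRPS15, whose bacterial homolog binds the ribosomal RNA early in assembly, was listed at 95.6, 104 and 94.8 FPKM, and MRPS21 at 93.9, 101 and 96.4 FPKM. These 2 could not be ranked against each other, since their values overlapped. MRPS17, another homolog of an early RNA binder, was listed at 61.5, 107 and 114 FPKM, below MRPS15 in library 1 and above it in libraries 2 and 3.

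At the low end of the small subunit were MRPS16 at 6.66, 9.92 and 10.2 FPKM, MRPS30 at 10.6, 12.3 and 10.3 FPKM and MRPS6 at 16.2, 13.2 and 23.3 FPKM. MRPS16 lay under MRPS30 in all 3 libraries. The decoding protein MRPS12, which guards accuracy in bacteria, stood at 23.97, 47.3 and 45.8 FPKM. MRPS7, whose bacterial homolog lies near the site where spent transfer RNA leaves, was nearly constant at 27.6, 26.7 and 26.5 FPKM.

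Some symbols do not match the place of the protein in the mammalian ribosome. MRPS30 and MRPS18A are built into the large subunit there, in spite of the S in their names. MRPS18A is 1 of several relatives of bacterial S18 and was listed at 39.7, 40.0 and 37.6 FPKM, beside its relative MRPS18C, of the small subunit, at 49.5, 34.1 and 37.1 FPKM. The pair overlapped, with MRPS18C higher in library 1 and MRPS18A higher in libraries 2 and 3. MRPS36, known in mammals as a part of the 2-oxoglutarate dehydrogenase complex of the citrate cycle, was listed at 88.1, 65.7 and 83.6 FPKM. Of 5 mitoribosomal proteins with other kinds of symbol, CHCHD1 was listed at 44.9, 52.4 and 52.6 FPKM and AURKAIP1 at 45.5, 40.6 and 38.7 FPKM, both inside the range of the small subunit genes. DAP3, PTCD3 and GADD45GIP1 were not matched.

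Compared by their matched genes, 31 of 46 in the large and 24 of 27 in the small, the subunits stood at about the same level. The median large subunit gene was at 29.6, 43.2 and 36.2 FPKM in libraries 1 to 3 and the median small subunit gene at 36.0, 38.1 and 37.4 FPKM. On the log2(FPKM + 1) scale the median of the large subunit minus that of the small was -0.27, 0.18 and -0.045. The mean difference of -0.044 ± 0.22 (SD, n = 3) was smaller than its spread (exact two-sided sign-flip permutation p = 0.75, where 3 libraries allow no p below 0.25). Its sign differed between the libraries, and it turned to 0.026 with curated transcripts alone, to 0.030 without MRPS36 and to 0.067 without library 1. It moved the other way, to -0.20 ± 0.21, with MRPS18A and MRPS30 counted in the large subunit, to -0.16 ± 0.31 with CHCHD1 and AURKAIP1 added to the small, and to -0.16 ± 0.077 over genes that overlap no other gene (SD, n = 3). The 31 large subunit genes held 0.230%, 0.270% and 0.2504% of the summed value in libraries 1 to 3 and the 24 small subunit genes 0.193%, 0.203% and 0.202%.

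By class medians, descent of the protein went with level in the large subunit. By what is known of the mammalian ribosome, 32 of the 55 genes encode homologs of bacterial ribosomal proteins. The other 23 were taken as particular to mitochondria, with MRPS36 among them although its place in the ribosome is in doubt. Their medians were 42.2, 48.5 and 46.6 FPKM for the homologs against 23.8, 34.0 and 31.7 FPKM, a log2 difference of 0.80, 0.50 and 0.54 (0.61 ± 0.16, SD, n = 3). The mean difference was 0.41 both with means over genes and with curated transcripts alone. In the large subunit the 18 homologs had medians of 44.7, 54.4 and 52.0 FPKM and the 13 others 21.6, 33.8 and 31.7 FPKM. Single genes overlapped widely, with means from 8.70 to 144 FPKM for the homologs and from 12.1 to 89.9 FPKM for the others. In the small subunit, taken by symbol and so with MRPS30 and MRPS18A, the order was the opposite. Medians there were 36.0, 37.0 and 37.4 FPKM for 14 homologs and 40.2, 44.3 and 42.0 FPKM for 10 others. That order was not firm and turned on which genes were counted. Without MRPS36 the median of the others is the value of MRPS34, at 29.3, 36.2 and 31.2 FPKM, below the homologs in each library. The same holds when MRPS25, MRPS26, MRPS31 or MRPS33 is left out in place of MRPS36. With MRPS36, MRPS30 and MRPS18A all left out, the others again stood above the homologs in each library. Medians were then 40.2, 44.3 and 42.0 FPKM for the others and 32.3, 34.1 and 37.1 FPKM for the homologs. Genes within a class are not replicates, and 3 libraries allow no p below 0.25, so none of these differences could pass 0.05.

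Between libraries, mitoribosomal genes were most often lowest in library 1 and highest in library 2. Lowest in library 1 were 30 of 55 (20 large, 10 small), where 25.8% of all kept genes were, and 30.2% of the 3049 kept genes in the same range of mean level. Highest in library 2 were 32 of 55 (20 large, 12 small), against 26.3% of all kept genes. Library 1 held the highest value of 11, against 51.1% of kept genes, and library 3 the highest of 12, against 22.6%. Of the rest, 8 were lowest in library 2 (34.8% of kept genes) and 17 in library 3 (39.4%). The commonest order was library 1, then 3, then 2, in 19 of 55 genes, against 13% of kept genes, and 14 of the 19 belong to the large subunit.

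The median kept gene was itself 0.15 higher in library 1 than in the mean of the other 2 libraries (log2), so these counts move with the scaling. After median-of-ratios scaling, which removes most of that shift, 46 of 55 genes were lowest in library 1 (26 of 31 large, 20 of 24 small), where 37.1% of kept genes were. Highest in library 2 were then 29, against 30.9%, and highest in library 3 were 22, against 31.7%. As deposited, 43 of 55 lay lower in library 1 than in library 2, against 39.1% of kept genes, and 31 lay lower in library 1 than in library 3, against 35.6%. Relative to the median kept gene, the mitoribosomal genes had a median deviation of -0.27, 0.16 and 0.090 log2 in libraries 1 to 3 from the mean of the other 2. The 3 deviations of a gene are tied, since each library enters the reference of the others.

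Differences beyond 1.5-fold on the log2(FPKM + 1) scale were mostly rises from library 1 to library 2. Library 2 exceeded library 1 by that much in 11 genes (9 large, 2 small), against 8.63% of kept genes, and fell below it by that much in 0, against 16.1%. MRPL51, which has no bacterial counterpart, showed the widest gap, at 21.0, 43.2 and 36.0 FPKM, and MRPS12 and MRPS17 followed. The other 8 were MRPL45, MRPL21, MRPL32, MRPL20, MRPL15, MRPL27, MRPL53 and MRPL28, chosen after their values were seen. MRPL15, the homolog of bacterial L15, was listed at 29.6, 48.0 and 47.3 FPKM, and MRPL28 at 28.4, 43.5 and 28.2 FPKM. In MRPL15 libraries 2 and 3 stood together above library 1, while in MRPL28 library 2 alone stood high.

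Library 3 exceeded library 1 beyond 1.5-fold in 4 genes (8.48% of kept genes), namely MRPS12, MRPS17, MRPL51 and MRPL15. It fell below library 1 in 2 (17.4% of kept genes), MRPL10 and MRPL44. MRPL44, an RNase III-like protein mutated in a human cardiomyopathy, was listed at 57.8, 41.5 and 37.3 FPKM and so went against most of its family. MRPL13 at 75.7, 56.6 and 54.6 FPKM and MRPS18C did likewise, with library 1 highest. Between libraries 2 and 3, MRPS6 alone was higher in library 3 (5.73% of kept genes), and MRPL10 and MRPL28 were lower there (8.23%). From library 2 to library 3 MRPL10 fell by 0.85 log2, more than any other of the 55, while its stalk partner MRPL12 fell by 0.21.

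**Figure D2:**
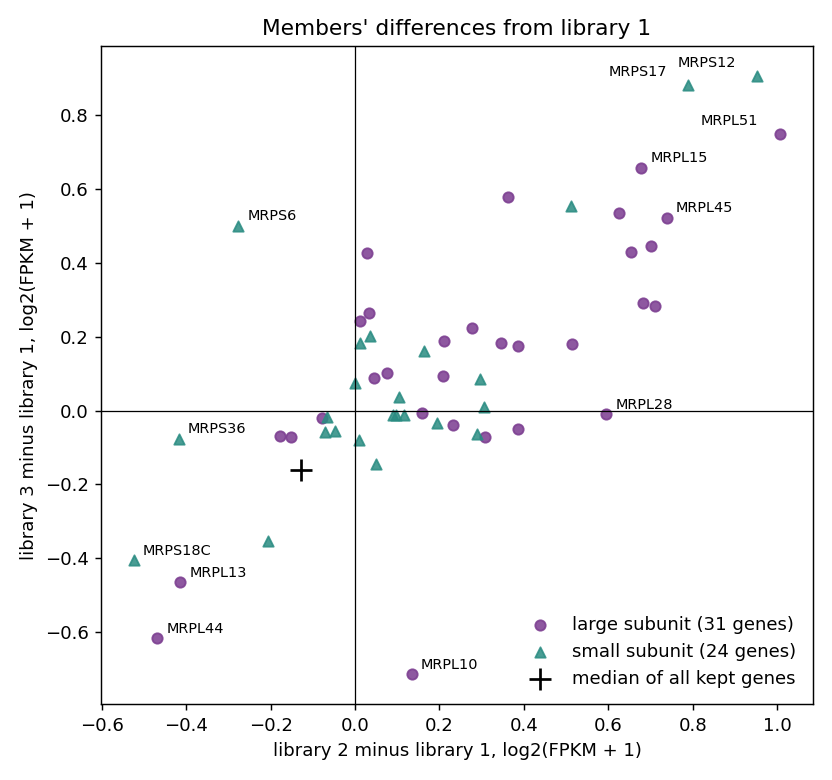
Each mitochondrial ribosomal protein gene by its difference in log2(FPKM + 1) between libraries 2 and 1 (horizontal) and between libraries 3 and 1 (vertical), with circles for the large and triangles for the small subunit. The cross marks the median of all kept genes, at -0.13 and -0.16, and most genes lie above and to the right of it. Both axes subtract library 1, so a slant from lower left to upper right would be seen even in unrelated values.

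The large subunit genes varied more between libraries than the small subunit genes. The SD of log2 level over the 3 libraries had a median of 0.238 in the large and 0.106 in the small subunit, beside 0.255 over all kept genes and 0.243 over kept genes in the same level range. On the log2(FPKM + 1) scale, all 3 libraries lay within 1.5-fold in 20 of 31 large and 21 of 24 small subunit genes. That made 41 of 55, where 61% of kept genes did. By the ratio of FPKM itself the count was 39 of 55. An SD under 0.1 was seen in 6 large and 10 small subunit genes, against 11.3% of kept genes. After median-of-ratios scaling the medians were 0.257 and 0.174. The difference was not tested, as genes are not replicates.

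Steadiest in the small subunit were MRPS7, with an SD of 0.029 log2, and MRPS23, with 0.034, at 21.8, 20.8 and 21.6 FPKM. In the large subunit they were MRPL16, with 0.042, at 57.6, 54.5 and 56.8 FPKM, and MRPL57, with 0.045. This steadiness is that of the values as deposited. After median-of-ratios scaling the SD in FPKM rose from 0.574 to 1.26 for MRPS7 and from 0.527 to 1.24 for MRPS23. It rose from 1.64 to 3.28 for MRPL16 and from 2.83 to 8.70 for MRPL57. The widest in the small subunit were MRPS12 (0.537), MRPS17 (0.485) and MRPS6 (0.394), and in the large MRPL51 (0.523), MRPL10 (0.456) and MRPL15 (0.386). The 2 sets of extremes were thus alike in size, and the subunits differed in their middle. From library 1 to library 2 the median gene moved by 0.28 log2 in the large subunit and by 0.069 in the small. From library 1 to library 3 it moved by 0.18 in the large subunit and by -0.013 in the small. Over all kept genes the median moved by -0.13 and -0.16 in these 2 steps. Relative to that, the large subunit moved by 0.41 and 0.34 and the small by 0.20 and 0.15.

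**Figure D3:**
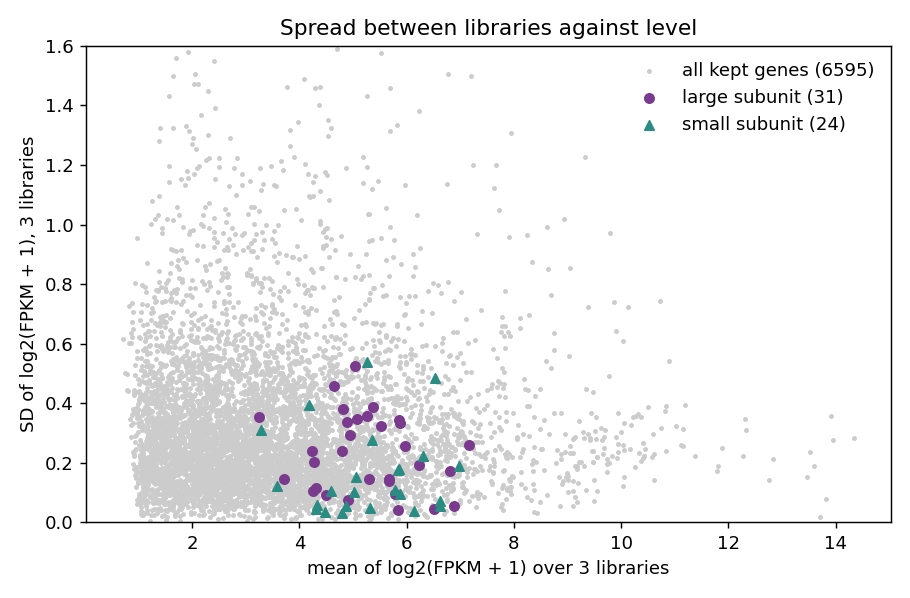
SD of log2(FPKM + 1) over the 3 libraries (vertical) against its mean (horizontal) for all 6595 kept genes in grey, large subunit genes as circles and small subunit genes as triangles. The mitochondrial ribosomal genes lie between 0.029 and 0.537 and 27 other genes lie above the top of the axis at 1.6.

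The pattern between libraries was set beside those of the respiratory chain, whose mitochondrial subunits this ribosome makes, and of the cytosolic ribosome. Of 51 nuclear respiratory chain genes, 44 were lowest in library 1 (25.8% of kept genes) and 44 were highest in library 3 (22.6%). The 12 of 55 mitoribosomal genes that peaked in library 3 are close to that background. Of 57 cytosolic ribosomal protein genes, 51 were lowest in library 3 (39.4% of kept genes), 29 were highest in library 1 (51.1%) and 27 in library 2 (26.3%). Relative median deviations in libraries 1 to 3 were -0.63, 0.12 and 0.46 log2 for the respiratory chain and 0.051, 0.22 and -0.30 for the cytosolic ribosome. For the large mitoribosomal subunit they were -0.35, 0.29 and 0.11, and for the small -0.21, 0.13 and 0.060. By these medians, the mitoribosomal genes had library 1 low, as the respiratory chain genes did. Both subunits had library 2 highest, as the cytosolic ribosomal genes did relative to all kept genes but not by count as deposited. By descent, the 32 bacterial homologs had -0.25, 0.20 and 0.070 log2 in libraries 1 to 3. The 23 genes particular to mitochondria had -0.28, 0.12 and 0.17, with library 3 highest, as in the respiratory chain. By count as deposited, 12 of these 23 were highest in library 2 and 7 in library 3. After median-of-ratios scaling, 39 of 57 cytosolic genes were highest in library 2 (30.9% of kept genes). Of 51 respiratory chain genes, 47 were then lowest in library 1 (37.1%) and 46 highest in library 3 (31.7%). The likenesses between groups were not tested.

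**Figure D4:**
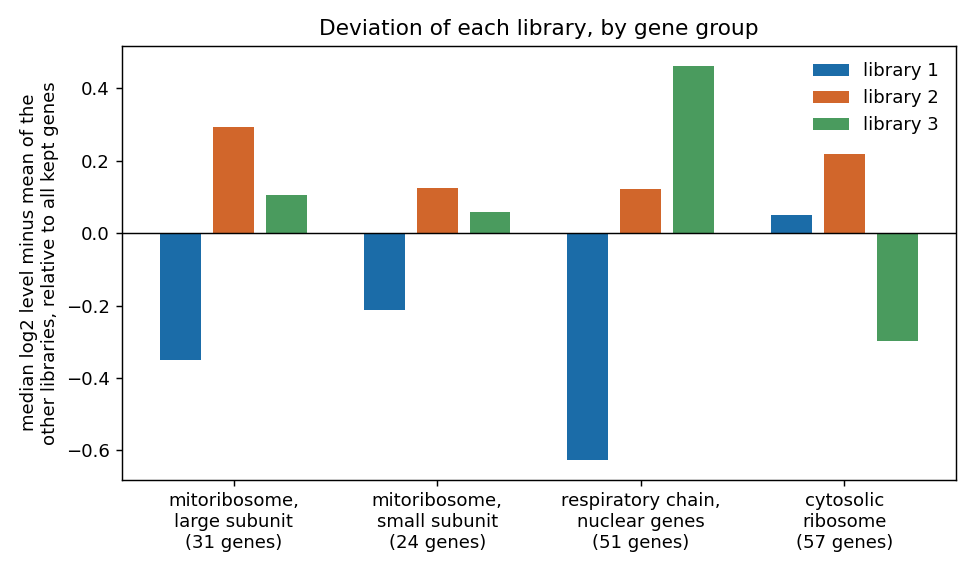
Median over genes of the log2 level in a library minus the mean of the other libraries, less the same median over all kept genes, for both mitoribosomal subunits, the nuclear respiratory chain genes and the cytosolic ribosomal protein genes (bars, 1 for each library). Library 1 is low for both subunits (-0.35 and -0.21) and for the respiratory chain (-0.63), and library 3 is high for the respiratory chain (0.46) and low for the cytosolic ribosome (-0.30).

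In level, the mitoribosomal genes stood far below both of these groups in each library. The median cytosolic ribosomal protein gene was at 938, 941 and 704 FPKM, and the median mitoribosomal gene stood to it at log2 differences of -4.90, -4.47 and -4.21 in libraries 1 to 3. RPS29 and RPLP1, the highest of the cytosolic genes, had means of 2309.5 and 2303 FPKM. The median respiratory chain gene was at 119.9, 162 and 178 FPKM, and the mitoribosomal median stood to it at -1.94, -1.94 and -2.23. COX7C, a subunit of cytochrome c oxidase, stood at 653, 822 and 955 FPKM.

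By group medians, the matched helpers of mitochondrial translation stood below the ribosomal proteins. Assembly factors (17 of 26 matched, 1 through a synonym) had medians of 10.5, 9.57 and 8.40 FPKM. They were led by the GTPases MTG1 at 23.4, 29.4 and 21.1 FPKM and NOA1 at 20.6, 26.3 and 23.96 FPKM. TFB1M, which methylates the small subunit RNA, had the widest spread among them, at 13.4, 8.69 and 7.33 FPKM, highest in library 1. The mitoribosomal median lay 1.82 ± 0.33 log2 units above theirs (SD, n = 3).

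Translation factors (11 of 16 matched, 9 kept) had medians of 20.1, 15.0 and 16.1 FPKM, and the mitoribosomal median was 1.05 ± 0.43 log2 units higher. The initiation factor MTIF3 was their highest, at 91.7, 79.8 and 65.4 FPKM. SLIRP, which stabilises mitochondrial messenger RNA, followed at 39.9, 51.1 and 47.9 FPKM. TUFM, TSFM, MTRFR, TACO1 and OXA1L were not matched and enter neither the median nor this order. MTFMT, which formylates the initiator transfer RNA, was listed at 9.03, 9.96 and 5.65 FPKM. Mitochondrial tRNA synthetases (8 of 17 matched) were the lowest group, at medians of 3.39, 3.55 and 3.85 FPKM, or 3.04 ± 0.19 log2 units under the ribosomal proteins. IARS2, for isoleucine, reached 13.9, 10.2 and 13.3 FPKM and PARS2, for proline, 5.14, 7.08 and 5.88 FPKM.

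Among the helpers, library 1 was highest in 9 of 17 assembly factors and 6 of 9 translation factors, beside 51.1% of all kept genes. It was lowest in 2 and 1 of them, beside 25.8% of all kept genes. Of 8 tRNA synthetases 2 were lowest in library 1, close to that share, and 2 highest there. Their relative median deviations in libraries 1 to 3 were nonetheless -0.21, 0.14 and 0.082 log2. Those of the small mitoribosomal subunit were similar, at -0.21, 0.13 and 0.060. The assembly factors had -0.068, -0.067 and -0.010, and the translation factors 0.19, -0.13 and -0.12. Whether the helpers differ from the ribosomal proteins in this was not tested. Among regulators of mitochondrial gene expression, TFAM, which packages mitochondrial DNA, was listed at 20.9, 22.5 and 24.04 FPKM, TFB2M at 16.0, 11.6 and 15.7 FPKM and the helicase gene C10orf2 (matched through the synonym TWNK) at 7.84, 16.6 and 12.3 FPKM. The transcription factor NRF1, known in mammals as an activator of many mitochondrial genes, stood at 12.0, 20.3 and 14.2 FPKM, and GABPA, known likewise, at 27.1, 20.4 and 29.9 FPKM. NRF1 was highest in library 2 and GABPA lowest there. PPARGC1A, a coactivator of mitochondrial biogenesis, had a mean of 0.825 FPKM and was not kept.

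**Figure D5:**
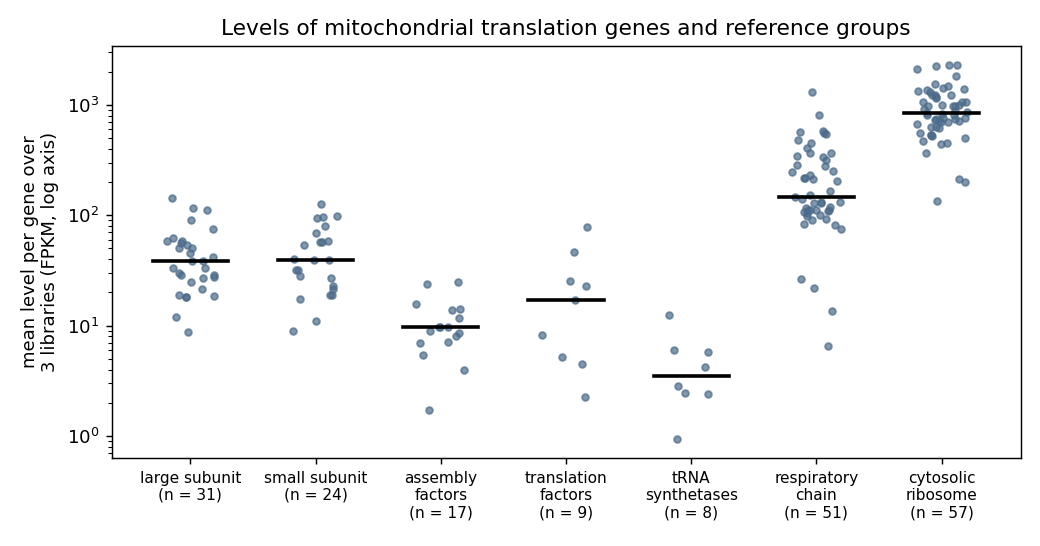
Mean level over the 3 libraries of each kept gene (points, FPKM, log axis) in both mitoribosomal subunits, in helpers of mitochondrial translation, in the respiratory chain and in the cytosolic ribosome, with a bar at the median of each group. Medians run from 3.53 FPKM for tRNA synthetases to 38.3 and 39.1 FPKM for the large and small subunit and 839.7 FPKM for the cytosolic ribosome. Points are shifted sideways at random for legibility.

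A few features of the genes bear on how firmly single values can be read. A single transcript stood for 47 of the 55 genes, and 8 were sums over several. In MRPL57, MRPL42 and MRPS31 the lesser transcript held 37.3%, 32.0% and 33.3% of the mean, while in MRPS18A and MRPS35 it held under 1%. By their places in the gene table, 16 of the 55 overlap another gene, among them MRPS6 with SLC5A3, MRPS18C with HELQ, MRPS14 with CACYBP and MRPL33 with RBKS. MRPL2, MRPS7, MRPS16 and MRPS21, named above for level or spread, are also among the 16. Reads of overlapping genes cannot be told apart without strand, which the labels do not state. None of the 11 genes with library 2 over library 1 beyond 1.5-fold overlap another gene there, where 39 of all 55 do not. The share over all genes of the table was not computed. MRPS26 carries the synonym GNRH2 in the table, so its values of 51.0, 52.3 and 58.9 FPKM are less certain in name.

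Only MRPS11 and MRPL46 are immediate neighbours among the 55. MRPS11, a small subunit platform protein, was listed at 64.9, 56.1 and 50.6 FPKM and MRPL46 at 17.4, 21.8 and 16.5 FPKM. MRPS11 was the higher in each library, and library 1 was highest in MRPS11 while library 2 was highest in MRPL46.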

How the data were processed

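Each of 3 polyA RNA libraries has a table of 36977 RefSeq transcripts. The values deposited by the authors were treated as FPKM, an inference from fractional values and their totals. CASAVA 1.7, HTSeq and Bowtie2 are listed in the submitters' processing notes without their roles. The genome build behind the values is not given in the sources used here. Accessions without version were paired with symbols of the NCBI gene table of GRCg7b, used for names and neighbours. In all, 13188 transcripts (35.7%) were named and summed per gene, so a gene with unmatched transcripts is understated. Levels were taken as log2(FPKM + 1), which understates folds of low genes. Python 3.11.15, pandas 2.3.3 and scipy 1.17.1 were used, and the steps were tested on simulated data. The members and lists were chosen with earlier results of these data known. Named genes were the highest, lowest, most and least variable of each subunit, chosen relatives, and the leading genes of each list. A planned promoter description was not run, as no sequences were used here. With 1 group and no counts, no test across genes was made.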

Additional observations from a re-analysis of the deposited data

How the results depend on the processing

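The alternatives were pseudocount 0.1, the highest transcript of each gene, curated transcripts, no filter on low values, median-of-ratios scaling, each library left out, other assignments to subunits and other averages. Dropping MRPS36 and dropping overlapping genes were chosen after seeing the data, as were all alternatives for spread by subunit, descent, library 2 and the reference groups. The log2 difference of large minus small subunit medians turned from -0.044 to 0.026 with curated transcripts and 0.030 without MRPS36, and ran from -0.16 to 0.067 with a library left out. With curated transcripts 36 genes were measured, with 0.273% of the summed value. Of these, 19 were lowest in library 1, beside 25.8% of genes kept with all transcripts. The share among curated transcripts was not computed. After scaling, 46 were lowest in library 1 (37.1% of kept genes) and 22 highest in library 3 (31.7%). The median SD of the small subunit was then 0.174, which left a gap of 0.082 to the large. The 39 genes that overlap no other held 0.290% of the summed value, with 5 highest in library 3, beside 22.6% of all kept genes. With library 2 left out, 31 genes were lower in library 1 than in library 3, as were 35.6% of genes kept with all 3 libraries. With library 3 left out, 43 were lower in library 1 than in library 2, beside 39.1%. With library 1 left out, 19 were highest in library 3, and no share over kept genes was computed. These counts choose among fewer libraries, so they cannot be set beside those from all 3. Across these settings the median SD was 0.115 to 0.165, and that of the large subunit 0.153 to 0.244. That of the small subunit was 0.055 to 0.099, and the gap 0.072 to 0.14. The other 122 values kept their direction where they are differences, and otherwise stayed within 1.5 times or 1 SD of the reported one. Of 117 recomputed levels of named genes 1 moved beyond 1 SD, that of MRPL57, which was 56.4 FPKM from its highest transcript. The libraries form 1 group, so none could be paired across conditions. The large minus small difference was taken within each library. Depth is unknown, so no counting error is given.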
